A study of Danio rerio with 8 samples.

Results

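Genes of the Toll receptor and NF-κB pathway were followed in retinas of adult zebrafish homozygous for a mutation in *bbs2* and in retinas of their wild-type (+/+) siblings. The genes are the 61 rows of the gene count table, of 32520 in all, whose symbol is that of a numbered Toll-like receptor (*tlr*), one of the adaptors and kinases that carry its signal (*myd88*, *ticam*, *tirap*, *irak*, *traf*, *map3k7*, *tab*, *map3k14*, *chuk*, *ikbk*), an NF-κB subunit or inhibitor (*nfkb*, *rel*) or *tnfaip3*. The ciliary gene *traf3ip1* was left out although its symbol begins in the same way. Each genotype had 4 samples of pooled retinas from fish of both sexes at 6 months, bred from heterozygous parents, dark-adapted overnight and dissected so as to take little of the retinal pigment epithelium. All tissue is bulk retina, and the mutation is present in every cell of the fish. Each of the 8 libraries carried 6279179 to 11496801 gene counts.

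Toll-like receptors bind molecules of microbes and of damaged cells at the cell surface or in endosomes. The adaptor Myd88 then gathers Irak kinases and the ubiquitin ligase Traf6, which activate the kinase Tak1 and the IκB kinase (IKK) complex. IKK marks the IκB inhibitors for destruction and so frees NF-κB dimers to enter the nucleus, where they induce inflammatory genes and also their own inhibitors. Microglia, the resident macrophages of the retina, are a main site of this pathway, and Müller glia and neurons hold parts of it.

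More of these genes rose in *bbs2* mutants than fell. Of the 61 genes 43 had enough counts to be tested, and 16 of these were higher and 2 lower in mutants (edgeR quasi-likelihood test, false discovery rate 0.05, 4 samples each). Those 16 make 37.2% of the tested members, while 15.2% of all 17144 tested genes were higher, and the 2 make 4.65% where 13% of all tested genes were lower. With a log2 fold change (log2FC, mutant over wild-type) beyond 0.5 there were 15 higher and 1 lower, against 12% and 5.55% of all tested genes. In 16 members every mutant sample lay above every wild-type sample and in 3 every one lay below, where 15.4% and 13.9% of all tested genes did so. The median log2FC was 0.13 over the tested members and -0.01 over all tested genes. The filter on low counts bears on these shares, since 11 members passed it through the mutant samples alone, and 9 of the 16 that rose are among them. Others, *traf3ip2l*, *tlr8a* and *map3k7cl*, were over the filter level in all wild-type samples and in fewer mutants. Among the 28 members over the filter level in all 8 libraries, 7 were higher (25%) and 1 was lower (3.57%), where 12.8% and 14.4% of the 14901 tested genes that meet the same condition were. That lower member is a row named *tlr7* that is not read as a Toll receptor below.

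**Figure D1:**
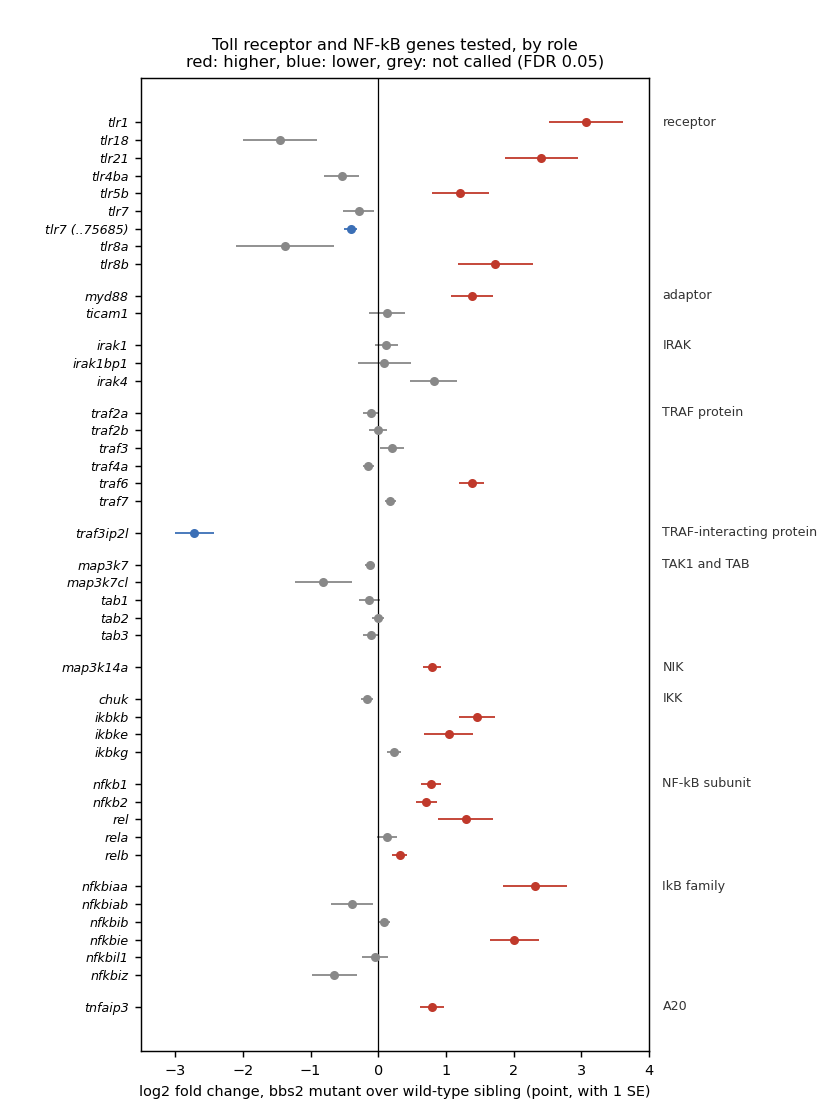
Log2 fold change of each of the 43 tested genes, mutant over wild-type sibling, with 1 standard error (SE), grouped by role (4 samples of each genotype). Red points mark the 16 higher genes and blue points the 2 lower ones at a false discovery rate of 0.05. The largest rise was that of *tlr1* (3.07) and the largest fall that of *traf3ip2l* (-2.72).

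The library labels and the tissue were checked first. The mutated gene *bbs2* itself was lower in mutants at 28.3 ± 0.651 CPM (SD) against 42.7 ± 2.35 CPM (CPM, counts scaled to the size of the library; log2FC -0.59 ± 0.09, SE, edgeR adjusted p = 8.82e-05). Markers of rods, cones and inner retinal neurons were present in every library, and 20 of 22 cone markers were lower in mutants. Markers of microglia and macrophages moved with genotype, with 24 of 24 tested genes higher and a summed level of 250 to 281 CPM in wild-type siblings and 611 to 754 CPM in mutants. The largest part of these sums was *hexb*, at means of 129 CPM in siblings and 192 CPM in mutants (log2FC 0.57 ± 0.09, SE). The median log2FC of the tested markers on this list was 2.08. Some of them, such as *marco* (means 0.559 CPM in siblings and 2.77 CPM in mutants), were low in siblings, so the filter favoured rises among the tested genes. The list has 30 rows. Too low to test were *mfap4* (6 reads over the siblings and 6 over the mutants), *tyrobp* (3 and 2) and *mpeg1.2* (1 and 6). So were *c1qa* (2 and 10), *c1qb* (1 and 18) and *c1qc* (8 and 25). Pigment cell markers summed to 93.9 to 228 CPM in wild-type siblings and 1410 to 2020 CPM in mutants, with 15 of 16 tested genes higher and no count for *ttr*. The sums of neutrophil markers were 17.7 to 18.1 and 37.7 to 68.3 CPM, and 4 of 6 tested genes were higher, while the neutrophil genes *mpx* (0 to 0.366 CPM in wild-type siblings, 0.087 to 0.936 CPM in mutants) and *cxcr2* (0 counts) were at or near 0. Most of the sibling sum was *s100a10b* (mean 13.2 CPM in siblings and 14.3 CPM in mutants, not called). Most of the mutant excess was *mmp9* (means 0.499 and 14.4 CPM) and *csf3r* (1.85 and 13.9 CPM). Lymphocyte markers summed to 5.8 to 8.78 CPM in wild-type siblings and 8.95 to 11.8 CPM in mutants, with 1 of 3 tested genes higher and no count for *cd8a*, *cd8b* and *pax5*. The list holds *cd3eap*, a gene not particular to lymphocytes, at a mean of 2.88 CPM in siblings and 3.89 CPM in mutants (not called). No other listed gene had a higher mean, so these sums are not read as a lymphocyte level. Of 18 tested markers of Müller glia 7 were higher, among them *fabp7a* (log2FC 1.08 ± 0.12). The 2 lower ones were *slc1a2b* (-0.29 ± 0.07) and *cahz* (-0.5 ± 0.16). Summed levels were 1720 to 2190 CPM in siblings and 1790 to 1850 CPM in mutants. The largest parts were *glula* (means 960 CPM in siblings and 814 CPM in mutants, not called) and *slc1a2b* (419 and 342 CPM), so these sums mainly follow those genes. Of 14 tested markers of blood vessel cells 4 were higher, among them *fli1b* (2.52 ± 0.45), and 1 was lower, *esama* (-0.69 ± 0.13). Their sums were 322 to 370 CPM in siblings and 333 to 373 CPM in mutants. The Müller glia and blood vessel markers named as higher were picked after their values were seen. The part of these cells in the results below was not tested. In bulk tissue a higher level of a gene in each cell cannot be told apart from more cells that express it.

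Among the receptors, 4 rose, and these belong to several classes. The 22 receptor rows held 9 tested genes, of which *tlr1*, *tlr21*, *tlr5b* and *tlr8b* were higher, where 15.2% of all tested genes were. Each of these 4 passed the filter on low counts through the mutant samples alone, so nothing is read from their number. No receptor row over the filter level in all 8 libraries was higher. The median log2FC of the tested receptor rows was -0.29. *tlr1*, whose mammalian counterpart pairs with TLR2 to sense lipoproteins, was at 0.166, 0.25, 0.366 and 0.126 CPM in wild-type siblings 1 to 4 and at 2.57, 1.25, 1.57 and 2.94 CPM in mutants 1 to 4. The groups did not overlap, and the log2FC was 3.07 ± 0.54 (SE, edgeR adjusted p = 0.000483). *tlr21*, a receptor of unmethylated DNA in fish and birds, was at 0.332, 1.25, 0.366 and 0.126 CPM in siblings and at 4.83, 2.6, 1.74 and 2.27 CPM in mutants, again without overlap (2.41 ± 0.54, adjusted p = 0.00337). Wild-type 2 was the highest sibling for this gene, and leaving it out gave a log2FC of 3.33. Without mutant 1, the highest mutant, it was 2.03 (edgeR adjusted p = 0.0173).

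The other receptors that rose are members of duplicated families. *tlr5b*, of the flagellin receptors, had 1.16, 0.751, 1.83 and 0.379 CPM in siblings and 2.06, 2.12, 2.87 and 2.54 CPM in mutants (log2FC 1.21 ± 0.42, edgeR adjusted p = 0.0425). Its call rests on all of these samples except wild-type 3. It ended without mutant 1, 2, 3 or 4 (adjusted p = 0.0609, 0.0667, 0.103 and 0.09) and without wild-type 1, 2 or 4 (0.0662, 0.109 and 0.116). *tlr8b*, whose mammalian relative senses single-stranded RNA in endosomes, was at 2.32, 0.5, 0.976 and 0.253 CPM in siblings and at 4.11, 4.14, 1.22 and 3.48 CPM in mutants (1.73 ± 0.55, adjusted p = 0.0313). Mutant 3 lay below wild-type 1, so the groups overlapped. Leaving out wild-type 1 gave a log2FC of 2.44. The gene was no longer called when mutant 1, 2 or 4 was left out (adjusted p = 0.0803, 0.0839 and 0.0732), nor when wild-type 2, 3 or 4 was (0.0905, 0.0747 and 0.0737).

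The receptors *tlr18*, *tlr8a*, *tlr4ba* and *tlr7* had lower means in mutants and were not called. *tlr18*, a receptor of fish related to *tlr1*, ranged from 0.829 to 7.2 CPM in siblings and from 0.72 to 1.87 CPM in mutants (log2FC -1.45 ± 0.55, edgeR adjusted p = 0.0663). It was called without wild-type 1 or wild-type 2 (adjusted p = 0.0121 and 0.0498) and with DESeq2 (0.0407). Without wild-type 3, the highest sibling, the log2FC was -0.73 (edgeR adjusted p = 0.313), and on the log2(TPM + 0.5) scale it was -0.59. *tlr8a* was at 5.47, 1.63, 2.56 and 1.9 CPM in siblings and at 0.103, 0.193, 2.17 and 1.87 CPM in mutants, so that mutants 1 and 2 were near 0 and mutants 3 and 4 lay within the range of the siblings (-1.38 ± 0.73, adjusted p = 0.198). The other 2 genes were at log2FC -0.54 for *tlr4ba* and -0.29 for *tlr7* (ENSDARG00000068812). A further row that the count table also names *tlr7* (ENSDARG00000075685) was called lower, from 140 ± 13.4 to 106 ± 14.5 CPM (SD; -0.41 ± 0.1, adjusted p = 0.00603). The reference table names this identifier FRMPD4, a scaffold protein of synapses, so the row is counted by its symbol and not read as a Toll receptor. Without it 1 member was lower, *traf3ip2l*.

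Some receptors stayed under the filter although reads were found mainly in mutants. No read of *tlr5a*, the other copy of *tlr5b*, was counted in any of the 4 wild-type libraries, while mutants 1 to 4 had 17, 19, 11 and 11 reads. Against a floor of 3 counts over the wild-type group this is at least 14.9-fold higher. *tlr3*, a sensor of double-stranded RNA, had 4, 1, 2 and 7 reads in siblings and 20, 24, 12 and 17 in mutants. When all genes with a count were tested, edgeR's adjusted p was 1.84e-05 for *tlr5a* and 0.00874 for *tlr3*. *tlr22*, a receptor of fish, had 6 reads over the siblings and 37 over the mutants, and *irak3*, an inhibitory relative of the Irak kinases, had 7 and 27 (adjusted p = 0.0591 and 0.224 in the same test). In these 4 genes every mutant value lay above every wild-type value, and for *tlr4al* (28 and 14 reads) every one lay below in CPM, though not in reads. Shares over all genes are given for tested genes only. None stands beside these counts of genes under the filter, and nothing is read from their number. Of the remaining 13 genes under the filter 4 had no count (*tlr4bb*, *tlr20.1* and both rows of *tlr20.3*) and 9 overlapped between genotypes, among them *tlr2*, *tlr9*, *tirap*, *traf1*, *traf4b* and *traf5*. Reads of near-identical receptor copies could have been divided between them in counting, which makes the split within such families uncertain.

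**Figure D2:**
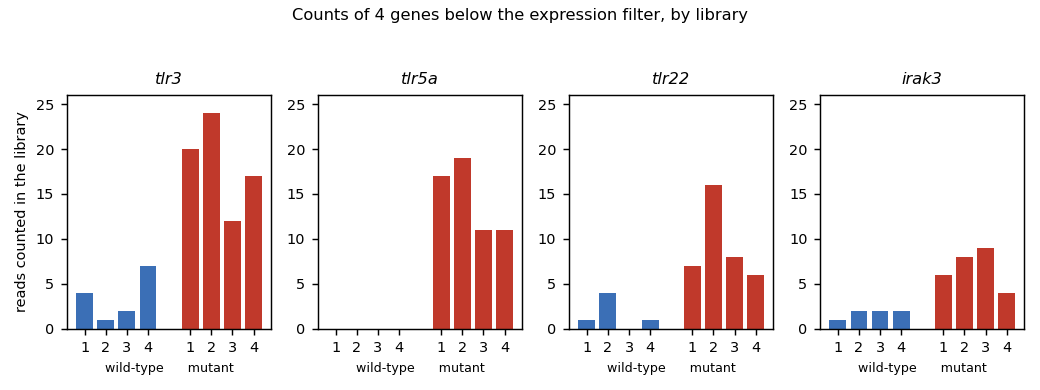
Reads counted per library for 4 genes under the filter on low counts, not scaled for library size (blue, wild-type siblings 1 to 4; red, mutants 1 to 4). Shown are the 4 of 18 genes under the filter in which every mutant lay above every sibling. *tlr5a* had no read in any sibling and 11 to 19 reads in each mutant.

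At the receptor-proximal steps *myd88* and *traf6* rose. The 3 tested genes with an *irak* symbol and the 5 other tested Traf genes did not pass the test. Of those 3, *irak1bp1* (log2FC 0.09 ± 0.39) is grouped by its symbol and is not read as an Irak kinase. *myd88*, the adaptor shared by most Toll receptors and by the interleukin-1 receptor family, was at 1.82, 1.75, 1.1 and 1.14 CPM in siblings and at 3.5, 4.14, 3.3 and 4.15 CPM in mutants. That is a rise of 2.6-fold (log2FC 1.38 ± 0.31, edgeR adjusted p = 0.00288) with no overlap. For *traf6*, the ubiquitin ligase downstream of Myd88, the values were 8.95, 7.13, 7.56 and 4.55 CPM in siblings and 17.8, 20.6, 16 and 18.6 CPM in mutants. The lowest mutant thus lay well above the highest sibling (1.38 ± 0.18, adjusted p = 2.90e-05).

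*ticam1*, the adaptor of the Myd88-independent branch in mammals, had a log2FC of 0.13 ± 0.26 (edgeR adjusted p = 0.771), and *irak1* one of 0.12 ± 0.17. *irak4*, the first kinase recruited by Myd88, was at 1.66, 1.5, 1.95 and 0.758 CPM in siblings and at 3.09, 2.89, 2.26 and 2.14 CPM in mutants. These groups did not overlap, but the adjusted p was 0.0956 (0.82 ± 0.35). *traf2a*, *traf2b*, *traf3*, *traf4a* and *traf7*, which serve TNF receptors and other signals, lay between -0.15 and 0.2 on the log2 scale, with SEs of 0.08 to 0.18.

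*traf3ip2l* fell most of all members. It is named for its likeness to TRAF3IP2, an adaptor of interleukin-17 receptors in mammals. Siblings 1 to 4 had 14.8, 11.8, 11.6 and 14.4 CPM and mutants 1 to 4 had 3.5, 1.44, 0.957 and 2.14 CPM, so the groups were far apart (log2FC -2.72 ± 0.29, edgeR adjusted p = 6.24e-06).

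**Figure D3:**
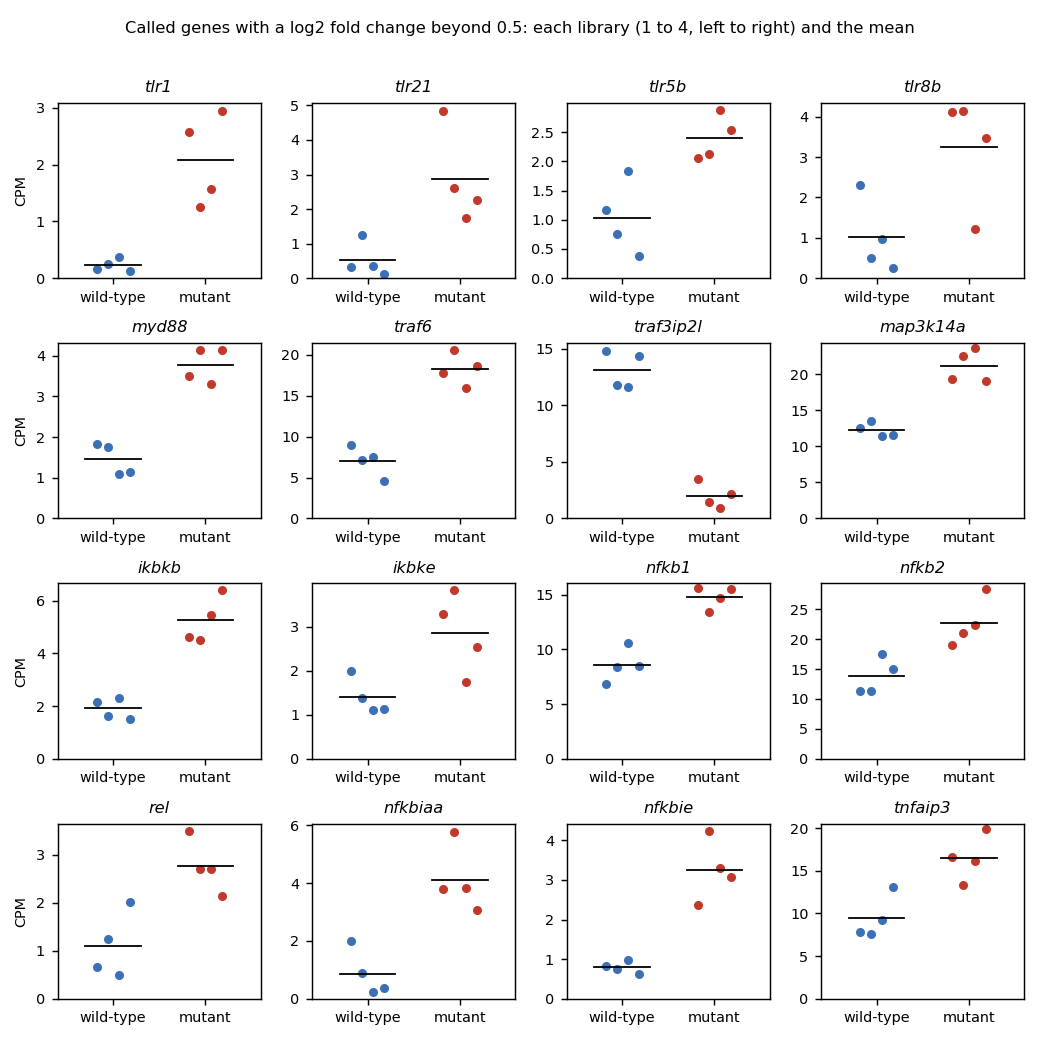
CPM in each library for the 16 called genes with a log2 fold change beyond 0.5 (blue, wild-type siblings 1 to 4; red, mutants 1 to 4, left to right; the bar is the mean). The groups overlap for *tlr8b* and *ikbke* and are apart for the other 14 genes, of which *traf3ip2l* is the one that fell.

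None of the 5 genes of Tak1 and its partners passed the test. *map3k7*, which encodes Tak1, was at 78.6, 81.2, 81.1 and 77.5 CPM in siblings and at 77.3, 69.6, 71.7 and 74.8 CPM in mutants (log2FC -0.12 ± 0.07, edgeR adjusted p = 0.241). Each mutant lay below each sibling, by a small margin, and the difference did not pass the test. *tab1*, *tab2* and *tab3*, which encode binding partners of Tak1, had log2FCs of -0.13, -0.01 and -0.11. *map3k7cl*, a short relative without the kinase part, had one of -0.81 ± 0.42 (edgeR adjusted p = 0.167).

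Of the IKK genes, *ikbkb* and *ikbke* rose and *chuk* and *ikbkg* did not pass the test. *ikbkb* encodes IKKβ, the kinase that marks IκB in the canonical pathway, and was at 2.16, 1.63, 2.32 and 1.52 CPM in siblings and at 4.63, 4.52, 5.48 and 6.42 CPM in mutants (log2FC 1.46 ± 0.26, edgeR adjusted p = 0.000614). The sibling and mutant ranges were separate. *chuk*, which encodes IKKα, was at 60.7, 73.9, 67.8 and 79.4 CPM in siblings and at 63.7, 65.9, 61.6 and 60.3 CPM in mutants, with overlapping groups (-0.17 ± 0.09, adjusted p = 0.181). The scaffold subunit *ikbkg* was at 28.2, 29.5, 34.6 and 27.9 CPM in siblings and at 34.6, 32.5, 37 and 36.9 CPM in mutants (0.23 ± 0.1, adjusted p = 0.105). It was called higher with library totals in place of trimmed-mean scaling (adjusted p = 0.0265), as was *traf7* (0.0169), and without wild-type 3 (0.0411).

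*ikbke* encodes a related kinase that also activates interferon regulatory factors, and its rise is the least firm. It was at 1.99, 1.38, 1.1 and 1.14 CPM in siblings and at 3.29, 3.85, 1.74 and 2.54 CPM in mutants (log2FC 1.04 ± 0.36, edgeR adjusted p = 0.0425), and mutant 3 lay below wild-type 1. Its call was lost without mutant 1, 2 or 4 (adjusted p = 0.104, 0.149 and 0.0668) and without wild-type 2, 3 or 4 (0.0812, 0.107 and 0.0991).

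The kinase of the non-canonical branch rose as well. *map3k14a* encodes NIK, which drives processing of the Nfkb2 precursor, and was at 12.6, 13.5, 11.5 and 11.6 CPM in siblings and at 19.4, 22.5, 23.7 and 19.1 CPM in mutants. Replicates lay close together in each genotype (log2FC 0.79 ± 0.13, edgeR adjusted p = 0.000212).

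Of the 5 NF-κB subunit genes 4 rose and *rela* did not pass the test. *nfkb1* was at 6.8, 8.38, 10.6 and 8.47 CPM in siblings and at 15.6, 13.4, 14.7 and 15.5 CPM in mutants (log2FC 0.78 ± 0.15, edgeR adjusted p = 0.00121). For *nfkb2* the values were 11.3, 11.4, 17.6 and 15 CPM and 19, 21.1, 22.4 and 28.5 CPM (0.71 ± 0.16, adjusted p = 0.00407). These genes encode the precursor subunits, and for both every mutant lay above every sibling.

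*rel*, a subunit known from blood cells, was at 0.663, 1.25, 0.488 and 2.02 CPM in siblings and at 3.5, 2.7, 2.7 and 2.14 CPM in mutants (log2FC 1.29 ± 0.41, edgeR adjusted p = 0.0269). Wild-type 4 came close to mutant 4, and the call ended without mutant 1 or 2 (adjusted p = 0.0814 and 0.0546) or wild-type 1 or 3 (0.0715 and 0.0817). *relb*, the partner of Nfkb2, was at 22.5, 26.1, 28.3 and 25 CPM in siblings and at 31.9, 28.9, 30.5 and 36.5 CPM in mutants (0.32 ± 0.11, adjusted p = 0.0375). This call ended without mutant 1 or 4 (0.0684 and 0.123) or wild-type 1, 2 or 4 (0.104, 0.0636 and 0.0777). *rela*, the main activating subunit, was at 15.7, 14.1, 16.8 and 12 CPM in siblings and at 13.4, 18.5, 14.8 and 17.5 CPM in mutants, with wide overlap (0.13 ± 0.15, adjusted p = 0.576).

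Inhibitors of NF-κB were divided. Of the 6 IκB family genes *nfkbiaa* and *nfkbie* rose, and so did *tnfaip3*, a ubiquitin-editing enzyme that shuts off the signal, and all 3 are known as targets of NF-κB in mammals. *nfkbiaa* was at 1.99, 0.876, 0.244 and 0.379 CPM in siblings and at 3.81, 5.78, 3.83 and 3.08 CPM in mutants (log2FC 2.32 ± 0.47, edgeR adjusted p = 0.00145). Wild-type 1 was the highest sibling, and without it the log2FC was 3.02. The lowest log2FC with a sample left out was 1.99. *nfkbie* was at 0.829, 0.751, 0.976 and 0.632 CPM in siblings and at 2.37, 4.24, 3.3 and 3.08 CPM in mutants (2.01 ± 0.36, adjusted p = 0.000497). The sibling values lay close together and far below the mutants. *tnfaip3* was at 7.79, 7.63, 9.27 and 13.1 CPM in siblings and at 16.6, 13.3, 16.1 and 19.9 CPM in mutants (0.79 ± 0.18, adjusted p = 0.00421), where mutant 2 lay just above wild-type 4.

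The other 4 IκB family genes did not pass the test. *nfkbiab*, the other copy of IκBα, varied widely among siblings, at 53.7, 42.8, 66.5 and 106 CPM, and was at 42, 62, 59.5 and 41.1 CPM in mutants (log2FC -0.39 ± 0.31, edgeR adjusted p = 0.411). *nfkbib* was at 0.09 ± 0.08 on the log2 scale, *nfkbil1* at -0.05 ± 0.19, and *nfkbiz*, an atypical nuclear IκB, at -0.65 ± 0.33 (adjusted p = 0.167).

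Levels were compared between genes per transcript length. Mean wild-type levels in deposited TPM (a transcript level corrected for length and depth) of the 16 higher genes ran from 0.13 for *tlr1* to 10.1 for *relb*. None of the members above 20 TPM, such as *traf4a* (40.3), *tab1* (36.9), *chuk* (29.4), *traf2a* (25.7), *map3k7* (24.4) and *nfkbiab* (23), was higher in mutants. In mutants *myd88* reached 4.76 TPM, *nfkbiaa* 4.95 TPM, *traf6* 6.93 TPM, *tnfaip3* 13.3 TPM and *nfkb1* 14.2 TPM. When members were split at their median level over all 8 libraries (9.53 CPM), a split chosen after the values were seen, 10 of 21 below it and 6 of 22 at or above it were higher. All tested genes were higher in 17.6% and 13.8% of cases at the same levels. Since 9 of the 16 higher members passed the filter through the mutant samples alone, low wild-type levels among them were set in part by the filter, and nothing is read from this split.

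**Figure D4:**
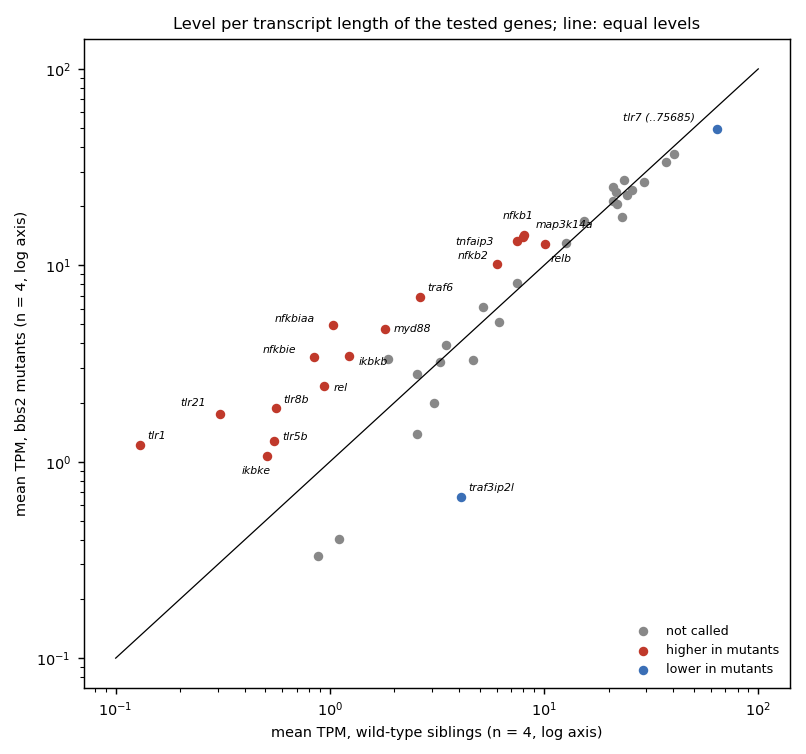
Mean TPM in mutants against mean TPM in wild-type siblings for the 43 tested genes (4 samples each, both axes on a log scale; the line marks equal levels). The 16 higher genes (red) lie at wild-type levels of 0.13 to 10.1 TPM, and the row named *tlr7* that the reference table names FRMPD4 is the highest of all.

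Gene pairs whose symbols differ only by a last a or b were compared by the log2 ratio of their counts within each library (with a prior count of 2). There were 4 such pairs with both genes tested. The ratio of *nfkbiaa* to *nfkbiab* was -4.6, -5.28, -7.13 and -7.44 in siblings 1 to 4 and -3.39, -3.37, -3.88 and -3.64 in mutants 1 to 4. It was higher in all mutants by 2.54 on the log2 scale (two-sided exact permutation test, p = 0.0286 and 0.0571 adjusted over the 4 pairs, where no lower p than 0.0286 is possible with 4 samples each), while *nfkbiab* remained the more abundant copy in every library.

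For *tlr8a* over *tlr8b* the log2 ratio was 1.16, 1.34, 1.21 and 2.14 in siblings and -3.7, -3.37, 0.73 and -0.82 in mutants. The difference was -3.25 (exact permutation p = 0.0286, and 0.0571 adjusted). It was -4.09 without mutant 3 and -2.61 without mutant 1. *tlr8a* thus had more reads than *tlr8b* in every sibling, and fewer in mutants 1, 2 and 4. Neither pair passed after adjustment, but 2 pairs at the lowest possible p could not have passed with these sample numbers. With mutants left out by turns the p of *nfkbiaa* over *nfkbiab* was 0.0571 each time, and with wild-type siblings left out by turns that of *tlr8a* over *tlr8b* was 0.0571 (exact permutation tests). The genotypes stayed apart in both pairs whichever sample was left out. With 3 samples against 4 the p can take few values, so nothing is read from its change. *traf2a* over *traf2b* differed by -0.11 and *rela* over *relb*, which are separate subunits and not copies, by -0.2 (exact permutation p = 0.571 and 0.286).

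**Figure D5:**
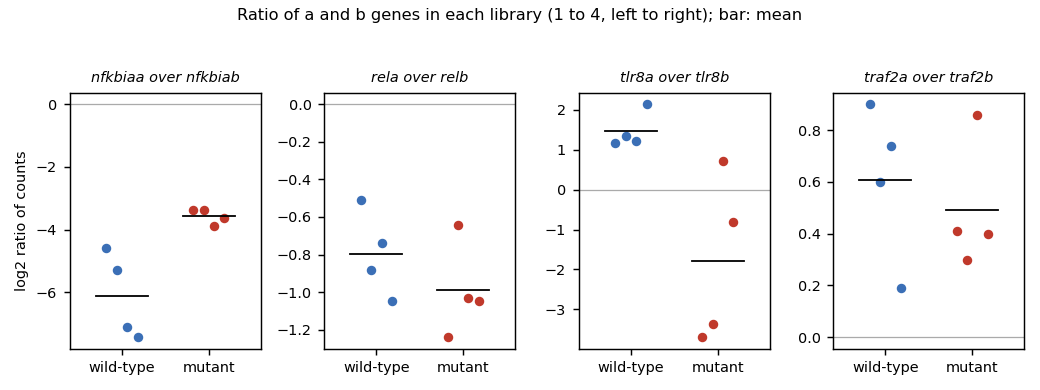
Log2 ratio of counts within each library for the 4 gene pairs (blue, wild-type siblings 1 to 4; red, mutants 1 to 4; the bar is the mean, and each panel has its own axis). The genotypes are apart for *nfkbiaa* over *nfkbiab* and for *tlr8a* over *tlr8b* and overlap for the other 2 pairs.

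Further genes of the pathway were taken from lists that do not use the symbols above. Over all 98 rows of these lists 66 were tested, and 19 were higher (28.8%) and 8 lower (12.1%), with a median log2FC of 0.07. Of all tested genes 15.2% were higher and 13% lower, so the share of lower genes is near that of all genes. Among receptors and their close partners 7 of 16 were higher and 1 was lower. These include the TNF receptors *tnfrsf1a* (1.54 ± 0.22, SE) and *tnfrsf1b* (1.88 ± 0.41), the receptors *cd40* (1.63 ± 0.27) and *tnfrsf11a* (0.89 ± 0.16), *unc93b1*, the chaperone of endosomal Toll receptors (1.54 ± 0.3), and the kinase gene *ripk1l* (1.57 ± 0.37). *il1rapl1b*, a synaptic relative of interleukin receptors, was lower (-0.6 ± 0.18).

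Of 35 ubiquitin and kinase regulators 6 were higher (17.1%) and 4 lower (11.4%), both near the shares of all tested genes. The phosphatase gene *ptpn6* (1.72 ± 0.31), the adaptor *tank* (2.45 ± 0.51), the ubiquitin-binding *optn* (0.54 ± 0.12), the kinase gene *map3k3* (0.53 ± 0.16) and 1 of the 3 rows named *otulina*, a deubiquitinase (0.86 ± 0.25), rose. *tbkbp1* (-0.39 ± 0.08), *otud7b* (-0.37 ± 0.08), *zranb1b* (-0.27 ± 0.08) and *zranb1a* (-0.26 ± 0.08), which encode a Tbk1 partner and deubiquitinases, fell.

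Of 39 rows of textbook targets of NF-κB 16 could be tested, with 6 higher (37.5%) and 3 lower (18.8%, against 13% of all tested genes) and a median log2FC of 0.09. *ccnd1*, a cyclin of the cell cycle (1.88 ± 0.18), and *tapbp.1*, of antigen presentation (1.74 ± 0.33), rose. So did *mmp9*, a matrix protease that is also on the neutrophil list (4.9 ± 0.74), *irf1b*, an interferon regulatory factor (2.42 ± 0.26), *ccl34b.1*, a chemokine that is also on the microglia list (1.94 ± 0.23), and *ptgs2a*, of prostaglandin synthesis (1.33 ± 0.39). *ptgs2a* had means of 0.962 CPM in siblings and 2.51 CPM in mutants. Its other copy, *ptgs2b*, was at 8.05 to 37.3 CPM in siblings and 3.19 to 6.15 CPM in mutants. That copy was not called (log2FC -1.71 ± 0.61, edgeR adjusted p = 0.0802). *sod2*, the mitochondrial superoxide dismutase (-0.41 ± 0.1), *stat5a* (-0.32 ± 0.09) and *gadd45ba* (-0.67 ± 0.19) fell. The best known cytokine targets were too low to test, with 18 reads of *il1b* over the siblings and 32 over the mutants, 0 and 23 reads of *cxcl8a*, 3 and 24 of *tnfb*, and none of *tnfa*.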

How the data were processed

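The authors aligned reads of ribosome-depleted, stranded libraries to GRCz11 (Ensembl annotation) with STAR and deposited raw gene counts, whole numbers that underlie all tests. Whether counting used strand, and which tool gave TPM, could not be read from the sources. The authors also deposited TPM, used here for levels between genes, size-factor normalized counts and a table of fold changes and p-values from their own DESeq2 1.30.1 comparison, the last 2 not used. All 8 samples were used.

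The test was edgeR 4.0.16 under R 4.3.3 (robust quasi-likelihood, TMM scaling, filter at a minimum count of 10, Benjamini-Hochberg adjustment over 17144 genes). SEs were derived from the F statistic. The steps were tested on simulated data. Alternatives were DESeq2 1.42.0, limma 3.58.1 (voom, and log2(TPM + 0.5)), other scaling, filters and depth, a replicate block and leaving out each sample. Replicates differed by more than sampling noise (chi-square per degree of freedom 5.4 to 11.4).

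Samples are separate biological replicates per the labels. The members, lists and pairs were chosen with earlier results of these data known. Values per library are given for called members with a log2FC beyond 0.5 and for 15 core genes. Of the other pathway genes, up to 6 called genes per direction of each list, by smallest p, are named, except 1 gene that is not reported here. Gene names follow the count table, and the reference table (60 of 61 identifiers matched) was used to check them. The identifier of *tlr8a* had no name there, so that name is unchecked. A row that the count table names *tlr20.3* (ENSDARG00000092668) is *tlr20.4* in the reference. Counting floors cover counting error only.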

Additional observations from a re-analysis of the deposited data

Results flagged for a closer look

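In 2 of the 86 sets of 4 replicate values examined (43 genes in each genotype), 1 sample lay far from the other 3 relative to their range, where chance gives about 1 in 20. *traf2b* was at 14.3 CPM in mutant 3 and at 16.9 to 17.2 CPM in the other mutants. *tab2* was at 42.7 CPM in mutant 4 and at 45.6 to 45.9 CPM in the other mutants. Neither gene was called between genotypes.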

How the results depend on the processing

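Of the 18 called members 13 kept their call under each of 17 alternatives in which they were tested, and *tlr5b*, *tlr8b*, *ikbke*, *rel* and *relb* lost it under some, while 3 others (*tlr18*, *traf7*, *ikbkg*) were called under some. The number of higher members ran from 11 to 17 with 1 sample left out. With a minimum count of 30 there were 7 higher members of 28 tested, and 7 called beyond a log2FC of 0.5, since fewer genes entered. Library totals in place of TMM moved the members' median to 0.23 and that of all genes to 0.09. With DESeq2 there were 16 higher and 3 lower, with limma-voom 14 and 2, with log2 TPM 14 and 2, with no filter 17 and 2, and with libraries thinned to equal depth 11 and 2. The genes tested ran from 14225 (minimum count of 30) to 26857 (no filter). The share of all tested genes called is not given for each alternative. Such counts therefore do not show how the members stand against all genes. On the log2(TPM + 0.5) scale the changes of low genes were smaller, at 1.40 for *tlr1*, 1.45 for *tlr21* and -2.04 for *traf3ip2l*. Leaving out the row that the reference table names FRMPD4, a choice made after the data were seen, left 16 higher and a median of 0.13. Of the 4 gene pairs, 2 had an unadjusted exact permutation p under 0.05, and 1 had with each sample left out in turn (1 to 1). The genotypes stayed apart in those 2 pairs each time, and with 3 samples against 4 the p can take few values. Samples of equal number did not deviate together (correlations -0.0659 to 0.0602), so the numbers do not pair them, and a replicate block gave 14 higher and 2 lower members. Without the block *ikbke* and *relb* are called, and with it their adjusted p was 0.0555 and 0.0503. The mutant over wild-type ratio of the share of counts was 2.7 to 3.28 for microglia markers and 11.3 to 15 for pigment cell markers over their 9 alternatives. Genes with few reads per library, most receptors among them, limit what these depths can show.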
